A study of Mus musculus with 9 samples.

Results

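Expression in hematopoietic stem cells (HSCs) that carried a deletion of 1 Bcl11a allele was compared with expression in wild-type HSCs, across every gene that the array annotation gave a single symbol. The comparison used 6 of the 9 arrays of the series, 3 heterozygous (Het) and 3 wild-type (WT), and covered 16636 genes tested of 22180 with a symbol. WT mice had both Bcl11a alleles floxed and no Mx1-Cre. Het mice had 1 floxed and 1 unmodified allele and carried Mx1-Cre, and the remaining 3 arrays came from mice with both alleles floxed and Mx1-Cre (KO). All groups were given poly(I:C), a double-stranded RNA that induces interferon, in 5 doses, and mice were 6 to 8 months old. The sorted cells were lineage-negative, Sca-1+ Kit+, CD48-, Flt3- and CD150+, and were YFP+ or YFP-. The sources used here do not assign a YFP state to the arrays. The groups therefore differed in Cre and in the number of floxed alleles as well as in Bcl11a, and these cannot be told apart. The labels call the 3 replicates of a genotype biological.

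Bcl11a encodes a zinc finger transcription factor that represses genes together with chromatin complexes such as NuRD. It is best known for silencing fetal globin genes in red cells, and it is required for B cell development. Mx1-Cre is driven by an interferon-responsive promoter that is active in many cell types, so cells around the stem cells can lose the allele too. A mouse with 1 deleted allele keeps an intact copy, which makes it a test of gene dosage rather than of absence.

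All values are log2 expression, and a difference of 1 is a change by a factor of 2. Medians of the 6 arrays lay between 3.98 and 4.15. Pearson's r across probe sets was 0.862 to 0.892 between WT arrays and 0.889 to 0.915 between Het arrays. WT replicate 1 stood lowest, with r of 0.862 to 0.864 to the other WT arrays and the smallest interquartile range, 2.22. Xist and Y-linked transcripts marked WT replicates 1 and 3 and Het replicate 3 as female, so 2 of 3 WT arrays and 1 of 3 Het arrays were female. A transcript that is absent read roughly 2.22 to 4.22, the range of Y-linked genes on high-Xist arrays and of Xist on the other arrays. With few cells and amplified RNA, a difference in the mix of cells cannot be told apart from a difference in RNA per cell.

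The targeted gene was examined first. The brighter Bcl11a probe set read 8.73, 8.81 and 8.38 on the WT arrays and 8.34, 8.37 and 8.89 on the Het arrays. The dimmer one read 6.38, 8.08 and 6.93 in WT and 6.97, 6.70 and 7.44 in Het. The groups overlapped on both. The Het minus WT difference was -0.11 with a 95% interval of -0.77 to 0.55 for the first and -0.09 with an interval of -1.05 to 0.86 for the second. The exact two-sided permutation p was 0.8 and 0.9, and with 3 arrays a side it cannot go below 0.1. A loss of 1 log2 unit, the size of 1 silent allele where both contribute equally, lay outside the first interval and inside the second. KO arrays read 7.82, 7.90 and 8.66 on the brighter probe set and 7.26, 6.94 and 7.39 on the dimmer one. They overlapped WT on both, so neither probe set separated cells with both alleles deleted from WT. The intervals therefore do not show whether intact Bcl11a RNA was halved in Het. The sources used here do not place these probes relative to the deleted part of the gene, so they do not settle how much of the allele was deleted.

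**Figure D1:**
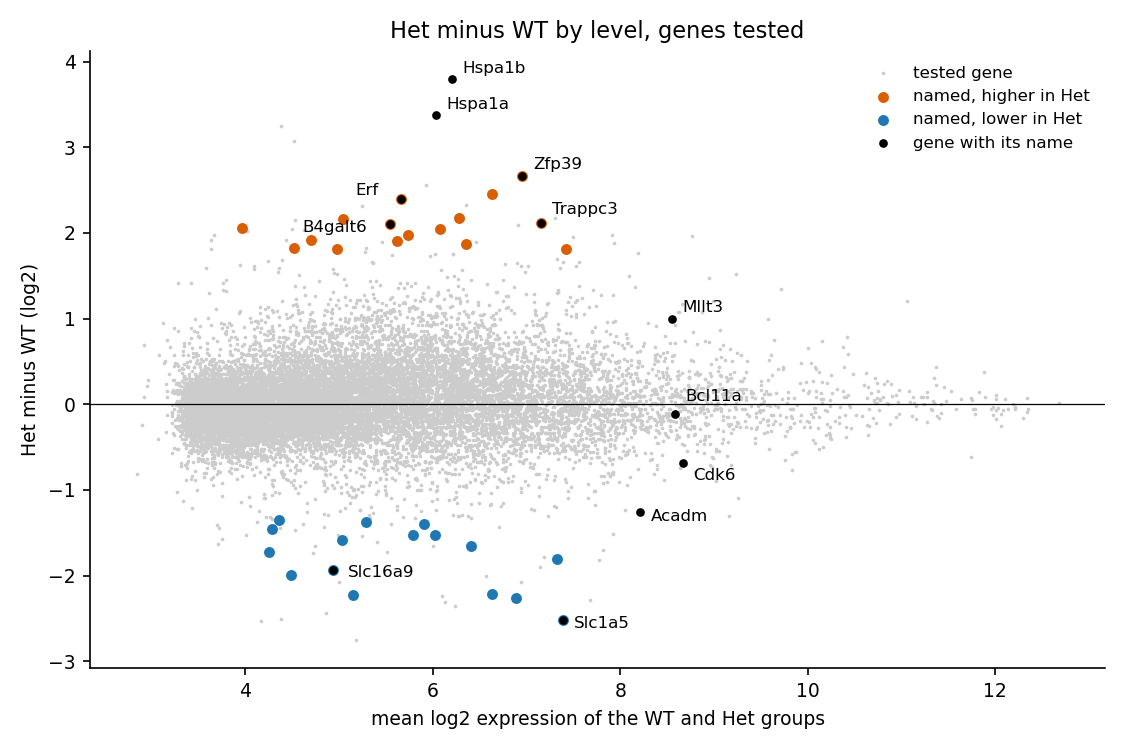
Het minus WT difference (log2) against the mean level of the WT and Het groups (log2) for the 16636 genes tested. Each grey dot is a gene, orange and blue dots are the genes of the largest non-overlapping differences in each direction, and black dots carry a name; Bcl11a sits near 0 and the Hspa1 pair is highest.

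No named gene passed the test in the comparison of Het with WT cells. limma with Benjamini-Hochberg adjustment called 0 of 16636 genes (0% called), and the lowest adjusted p was 0.559. At an unadjusted p under 0.05 there were 813 genes (4.89%), 519 of them higher (3.12%) and 294 lower (1.77%) in Het. Without WT replicate 3 these were 855 and 469. The 3 Het arrays all lay above the 3 WT arrays in 751 genes (4.51%) and all below them in 648 genes (3.9%), together 1399 genes (8.41%). Where groups do not differ, such separation in either direction has a probability of 0.1 per gene. An unadjusted p under 0.05 then has a probability of 0.05. The shares seen, 8.41% and 4.89%, were not above these. Across all genes tested 8049 (48.4%) had a higher mean in Het and 8559 (51.4%) a lower one, with a median difference of -0.01. Het arrays were about as tight as WT arrays: the median SD across genes was 0.32 in Het and 0.337 in WT.

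The intervals set what this comparison could show. The median standard error of the difference was 0.298. The 95% interval stayed within 1 log2 unit of 0 for 10008 genes (60.2%), for which a 2-fold difference in either direction lay outside the interval. This holds for array values only. The genes tested reach down to a mean of 3.31, inside the range of absent transcripts, and their median level was 4.87. The processing compresses differences of dim transcripts, so for dim genes a narrow interval does not exclude a 2-fold difference in RNA. The absolute difference was above 1 in 484 genes and above 2 in 36. The genes below are therefore described by their values, and none is called.

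The probe sets outside the named genes gave the 6 calls of the comparison. When all 41345 probe sets were fitted together, 6 passed at an adjusted p under 0.05 (0.0145%), 5 higher (0.0121%) and 1 lower (0.00242%), and none of them had a gene symbol in the annotation. They hold 4 distinct patterns of values, since 3 of them share identical values. Probe set 17549014 and its copies 17549136 and 17549148 read 5.84, 6.59 and 7.29 in WT and 10.64, 10.13 and 10.58 in Het. The difference of 3.88 (SE 0.353, 95% interval 3.07 to 4.68) is 14.7-fold, with an adjusted p of 0.0172. Every Het array lay far above every WT array, and the same held in KO cells, at 10.16, 10.18 and 9.90. Probe set 17549066 read 6.22, 5.79 and 6.39 in WT and 9.50, 9.07 and 9.54 in Het, a 9.43-fold difference (adjusted p = 0.0101). Probe set 17549072 read 6.67, 6.69 and 7.25 in WT and 10.48, 9.95 and 10.43 in Het, a 10.7-fold difference (adjusted p = 0.0101). Probe set 17549150 went the other way, at 6.95, 6.79 and 7.12 in WT and 4.22, 4.09 and 4.42 in Het, 6.54-fold lower in Het (adjusted p = 0.0172). KO minus Het had an adjusted p of 0.998 for each of the 6. The differences stood within both sexes, for example 4.02 in females and 3.80 in males for 17549014. The fit to the 6 arrays alone and the fit with the replicate number as a block each called 0 of them, sex as a term called 3, and leaving out 1 array called 0 to 6: 0 without WT replicate 2, Het replicate 1 or Het replicate 3, 2 without Het replicate 2, KO replicate 1 or KO replicate 2, and 3 without KO replicate 3. Over these refits the difference of 17549014 ranged from 3.51 to 4.23. Because the groups with and without Mx1-Cre differ in the transgene and the allele together, the source of these signals cannot be told apart here.

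**Figure D2:**
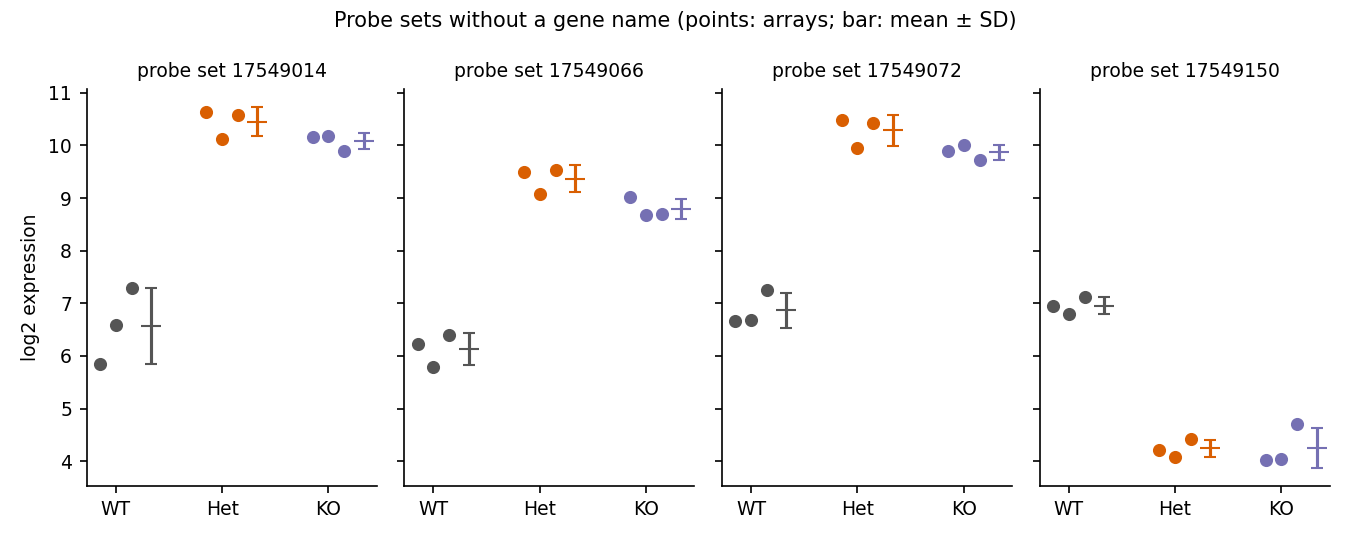
Log2 expression of the 4 distinct unnamed patterns on each array of the 3 genotypes, with points for arrays and bars for mean and SD. Het arrays read 9.07 to 10.64 in the first 3 panels, above the WT arrays at 5.79 to 7.29; in the fourth panel Het arrays read 4.09 to 4.42, below WT.

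Among genes whose Het arrays all lay above the WT arrays and whose unadjusted p was under 0.05, the 16 with the largest differences ran from 1.81 to 2.67. They were chosen by these differences, so the values are a description. Zfp39, a zinc finger protein, read 4.12, 6.62 and 6.12 in WT and 7.78, 9.26 and 7.83 in Het, a difference of 2.67. Tmem203, an endoplasmic reticulum membrane protein, read 5.58, 5.55 and 5.07 in WT and 7.15, 9.58 and 6.85 in Het. Het replicate 2 was the highest array for both genes. Erf, an ETS family repressor downstream of MAP kinase signalling, read 3.78, 3.39 and 6.22 in WT and 6.44, 7.0 and 7.15 in Het. Its WT replicate 3 lay close to the Het arrays. Terc, the RNA template of telomerase, read 3.90, 5.98 and 5.70 in WT and 7.72, 6.01 and 8.36 in Het. Its Het replicate 2 was within 0.03 of WT replicate 2, and the difference of 2.17 came mostly from WT replicate 1 and the other 2 Het arrays.

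Several of these genes had narrow groups. B4galt6, which makes lactosylceramide, read 4.19, 4.59 and 4.68 in WT and 6.61, 6.57 and 6.62 in Het, a difference of 2.11 with a 95% interval of 1.22 to 3.01. Trappc3, a core subunit of the TRAPP vesicle tethering complex, read 5.90, 5.86 and 6.53 in WT and 8.17, 8.70 and 7.77 in Het. Myl6b, a myosin light chain, read 3.63, 3.93 and 3.66 in WT and 5.08, 6.21 and 5.69 in Het, with WT at the level of absent transcripts. The lowest Het array stood above the highest WT array by 1.89 for B4galt6, 1.24 for Trappc3 and 1.15 for Myl6b. Neo1, a netrin and RGM receptor, read 4.24, 5.01 and 4.74 in WT and 6.37, 7.07 and 6.27 in Het. Hid1, a Golgi-associated protein of the secretory pathway, read 3.22, 3.96 and 4.72 in WT and 6.15, 6.03 and 6.19 in Het. Thap2 and Triqk read higher by 1.98 and 1.82, and Slc35e3, of the nucleotide-sugar transporter family, by 1.81. WT Triqk, at 3.20 to 4.10, was at the level of absent transcripts. Arhgap27 was higher by 1.87, but its WT arrays were spread, at 3.98, 6.65 and 5.63. With 1 array left out its difference ranged from 1.15 to 2.49. Tatdn1, a deoxyribonuclease, and Polr2l, a shared subunit of RNA polymerases, read higher by 2.05 and 2.06. WT Tatdn1 was spread, at 3.21, 5.37 and 6.58, and its difference ranged from 1.13 to 2.81 with 1 array left out. WT Polr2l at 2.39 to 3.55 was at the background level.

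The 16 genes chosen the same way in the other direction ran from -2.52 to -1.35. Slc1a5, the glutamine transporter ASCT2, read 8.02, 10.20 and 7.74 in WT and 6.54, 5.12 and 6.73 in Het, a difference of -2.52 with a 95% interval of -4.08 to -0.96. WT replicate 2 was far above the other WT arrays. Slc16a9, a monocarboxylate transporter family member, read 5.70, 5.95 and 6.08 in WT and 3.44, 4.12 and 4.36 in Het, and both groups were narrow. Its Het readings lay at about the level of absent transcripts. Ndufb11, an X-linked subunit of respiratory complex I, read 7.26, 8.67 and 7.28 in WT and 4.44, 5.04 and 7.11 in Het. Its low arrays were the 2 male Het arrays: the difference was -3.93 within males and -0.16 within females. The male value rests on 1 WT array, the highest at 8.67, and the female value on 1 Het array, at 7.11. Prps2, an X-linked enzyme of nucleotide synthesis, gave -2.50 in males and -0.07 in females. With 1 male WT array and 1 female Het array, these values do not show that a difference depended on sex. Pdzd11, X-linked too, was -1.63 in males and -1.12 in females, and had the smallest p of all genes (adjusted p = 0.559). Tmem126a, a complex I assembly factor, was lower by 1.53, and Lyrm7, which matures complex III, by 1.73, though only WT replicate 3 (7.15) was high for Lyrm7. The other WT arrays and all Het arrays read Lyrm7 at the level of absent transcripts.

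The lower set also held genes of cell division and of immune cells. Cdkn3, a phosphatase that acts on cyclin-dependent kinases, read 7.52, 5.95 and 6.88 in WT and 5.82, 4.02 and 5.93 in Het. Kifc1, a mitotic kinesin, read 5.78, 6.67 and 5.03 in WT and 4.26, 4.89 and 3.58 in Het, and Bod1, a chromosome attachment factor, was lower by 1.35. Cd69, an early activation marker, read 5.09, 6.25 and 5.10 in WT and 3.08, 3.26 and 4.14 in Het. Ly86, a partner of RP105 on B cells and myeloid cells, was lower by 1.46. The Het readings of Bod1, Cd69 and Ly86 were at the level of absent transcripts, which leaves the size of these differences uncertain. Mocs2, which makes the molybdenum cofactor, and Zfp507 were lower by 1.65 and 1.81, and Het replicate 3 read nearest to WT in both. Rsph3a and the receptor Mc5r rested partly on WT replicate 3, at 10.60 and 7.64.

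**Figure D3:**
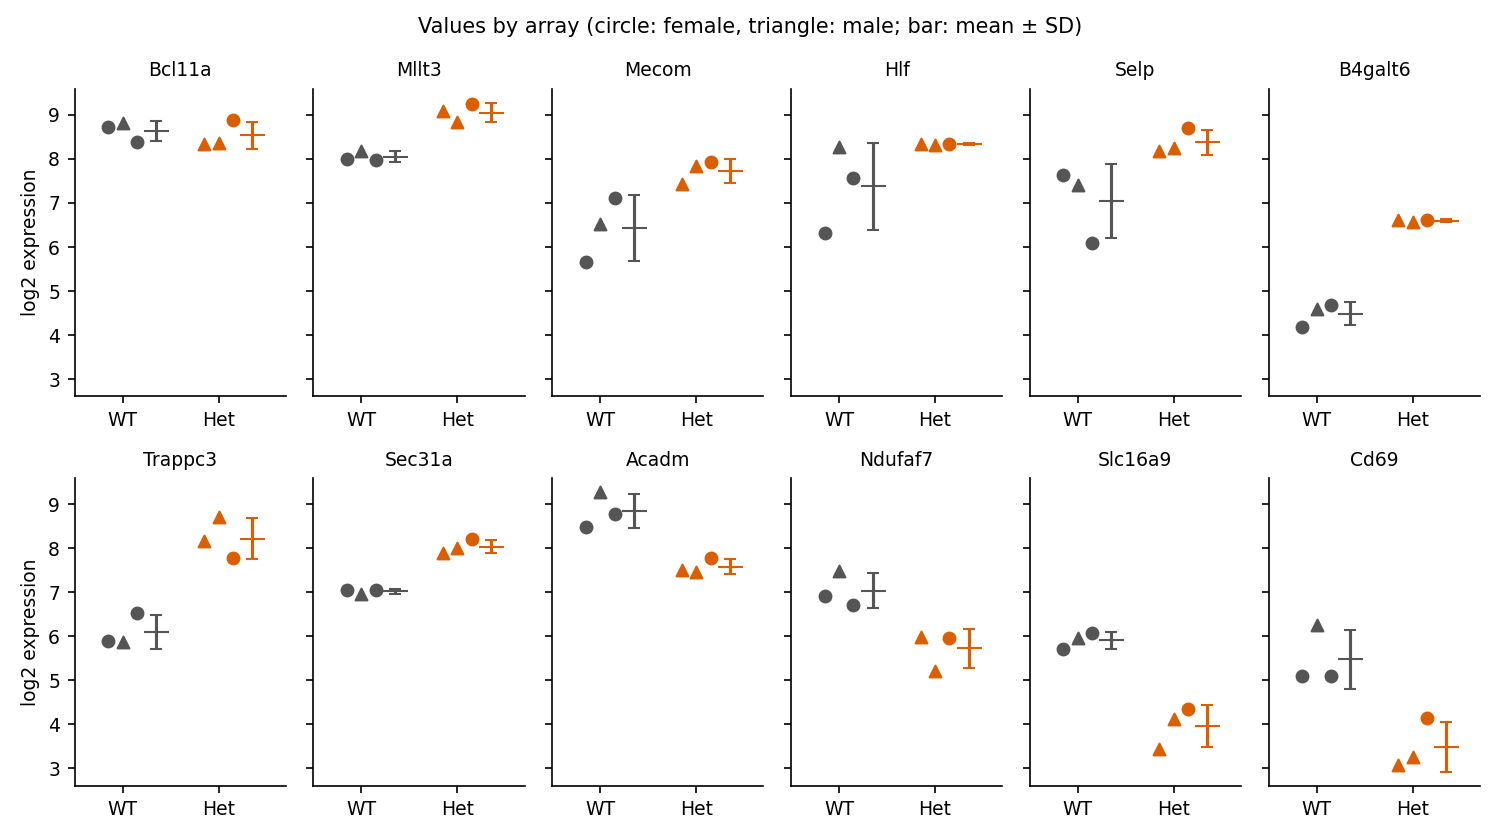
Log2 expression on each WT and Het array for Bcl11a and 11 genes named in the text; circles are female arrays, triangles male arrays and bars the mean and SD. Bcl11a overlaps between the groups, while the B4galt6 Het arrays, at 6.57 to 6.62, all lie above WT and the Slc16a9 Het arrays, at 3.44 to 4.36, all lie below it.

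Of 41 tested HSC identity genes 32 read higher in Het and 9 lower, with a median difference of 0.39 beside -0.01 over all genes, and none passed the test. The groups did not overlap for 8 members above WT (19.5%) and 1 below it (2.44%), beside 4.51% and 3.9% of all genes. This list and those below were chosen with earlier results of these data known, so their shares are descriptions. Mllt3, a regulator that sustains stem cell self-renewal, read 7.99, 8.19 and 7.98 in WT and 9.08, 8.83 and 9.25 in Het. The difference of 1.0 has a 95% interval of 0.50 to 1.5. Mecom, the EVI1 locus needed for HSC maintenance, read 5.65, 6.53 and 7.12 in WT and 7.42, 7.83 and 7.93 in Het. Erg, an ETS factor, read 7.60, 8.65 and 8.84 in WT and 9.46, 8.99 and 9.15 in Het. Hlf, an HSC-restricted factor, read 6.31, 8.27 and 7.56 in WT and 8.34, 8.32 and 8.35 in Het, and Gata2 read 5.13, 8.22 and 8.17 in WT and 8.26, 8.38 and 8.33 in Het. WT replicate 1 was the lowest array for each of Mecom, Erg, Hlf and Gata2, and for Gata2 the other WT arrays lay close to the Het arrays. The mean over the list was 6.07 on WT replicate 1 against 6.80 and 6.69 on the other WT arrays, and 6.75, 6.96 and 6.98 in Het. Without WT replicate 1 the list median was 0.13, and within males it was 0.06 against 0.71 within females. Hoxb4 was the one member wholly below WT, at 6.75, 6.89 and 6.22 in WT and 6.20, 5.80 and 5.59 in Het.

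Of 51 tested genes known to be higher in older HSCs, 35 read higher and 16 lower, with a median difference of 0.30, and 10 did not overlap above WT (19.6%, beside 4.51% of all genes) and 2 below (3.92%, beside 3.9%). Their list mean was 5.23, 5.42 and 5.39 on the WT arrays and 5.68, 5.65 and 5.83 on the Het arrays, so the groups did not overlap. Members were chosen with earlier results of these data known, so this is a description and not a test. The list median was 0.33 within females and 0.18 within males. Selp, P-selectin, read 7.64, 7.40 and 6.09 in WT and 8.17, 8.24 and 8.71 in Het. Tgm2, a transglutaminase, read 5.43, 7.45 and 5.76 in WT and 8.12, 7.49 and 7.89 in Het, and Krt18, a keratin, read 7.08, 5.94 and 6.72 in WT and 7.45, 8.19 and 7.23 in Het. Both gave Het arrays above WT with a narrow margin. Gpr183, an oxysterol receptor that guides cell position, went the other way at 6.16, 6.03 and 6.46 in WT and 4.78, 5.28 and 5.01 in Het. Vwf, the platelet adhesion factor often used as a mark of this programme, overlapped at 5.12, 5.55 and 5.99 in WT and 5.98, 5.48 and 7.37 in Het. Neo1 and Mllt3, given above, are members too.

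The genes of the sort gate were read as a check of the sorted populations. Of 11 tested genes of this list 9 read higher and 2 lower, with a median of 0.27, and the groups overlapped for all of them. The list also holds Cd34 and Procr, which are not in the gate given above and were higher by 0.35 and 0.58. Slamf1, which encodes CD150, read 4.64, 4.67 and 6.71 in WT and 6.61, 7.32 and 7.34 in Het. The difference of 1.75 had a 95% interval of 0.47 to 3.03, and Het replicate 1 lay below WT replicate 3. Flt3, which the gate excludes, read 4.99, 3.99 and 5.36 in WT and 3.93, 4.10 and 3.95 in Het. Both Flt3 and Cd48, at 4.83, 3.63 and 4.57 in WT and 5.13, 3.90 and 4.21 in Het, had readings at or just above the level of absent transcripts in both groups. Kit (8.75, 9.25 and 9.47 against 9.60, 9.19 and 9.49) overlapped. Ly6a, which encodes Sca-1, had no probe set with 1 symbol.

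Heat shock proteins fold and protect proteins, and HSP70 genes are induced by heat shock factor. Hspa1a and Hspa1b are near-identical HSP70 copies, so their probe sets may share signal and the 2 genes are not certain apart. Hspa1a read 4.56, 4.92 and 3.56 in WT and 9.32, 9.12 and 4.73 in Het. Hspa1b read 3.12, 4.07 and 5.71 in WT and 9.56, 10.10 and 4.63 in Het. Het replicates 1 and 2, both male, were high, while Het replicate 3 lay inside the WT range. The differences, 3.38 (95% interval 0.44 to 6.31) and 3.80 (0.64 to 6.96), stood beside 0.67 and 0.21 within females and 4.30 and 5.76 within males, and the groups overlapped. The test of whether the difference depended on sex, a limma interaction term, gave an adjusted p of 0.995 for both genes (unadjusted p = 0.161 and 0.0474), with 1 female Het and 1 male WT array behind it. With sex as a term in the fit the differences were 2.70 and 3.16. KO arrays read 2.95, 7.74 and 4.56 for Hspa1a and 5.33, 9.44 and 6.47 for Hspa1b, so high values appeared on 1 array there too.

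The promoter of the Hspa1 pair, shown because the pair stood apart, carries a heat shock element core. The 250 bases before each start site are from RefSeq on GRCm38.p6, 5′ to 3′, and both genes lie on the minus strand: Hspa1a at chr17:34972157-34972406 and Hspa1b at chr17:34959239-34959488. Capitals mark GAANNTTC, which is the same on both strands.
Hspa1a: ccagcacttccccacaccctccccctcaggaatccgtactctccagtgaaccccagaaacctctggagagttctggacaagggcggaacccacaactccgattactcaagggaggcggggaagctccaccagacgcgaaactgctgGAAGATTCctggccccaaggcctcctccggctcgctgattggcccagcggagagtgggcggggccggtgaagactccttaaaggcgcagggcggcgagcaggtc
Hspa1b: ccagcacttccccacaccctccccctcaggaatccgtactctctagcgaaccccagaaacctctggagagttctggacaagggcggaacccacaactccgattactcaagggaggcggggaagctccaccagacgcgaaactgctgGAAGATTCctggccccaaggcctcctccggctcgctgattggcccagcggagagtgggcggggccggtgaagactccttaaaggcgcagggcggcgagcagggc
The sequences are identical at 247 of 250 bases, with 3 mismatches. The core begins 104 bases before the start site in both. Over windows of 250 bases before to 50 bases after the start, 2582 of 32851 promoters (7.86%) hold this core on either strand, so it is common and no site of binding is shown by it.

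The other heat shock genes lay on both sides of 0. Of 19 HSP70 family and partner genes 8 read higher and 11 lower, with a median of -0.04, and of 20 HSP40 genes 9 were higher and 11 lower (median -0.03). In the HSP90, chaperonin and small heat shock group 9 were higher and 12 lower (median -0.05). Hspa8, the constitutive HSP70, read 12.23 ± 0.0737 in WT and 12.18 ± 0.129 in Het. Bag3, an HSP70 partner, lay wholly above WT, at 5.61, 6.06 and 5.72 in WT and 6.12, 6.20 and 6.27 in Het, as did the small heat shock protein Cryab, higher by 0.36. Wholly below WT lay 3 of the 19 HSP70 genes (15.8%, beside 3.9% of all genes), Hspa4l, Hyou1 and Bag5, lower by 0.31 to 0.56. The gap between the groups was only 0.04 for Hspa4l and 0.01 for Bag5. In the other groups these were Dnajb12, lower by 0.22 (5% of its group), and Hspb8 and Hspb11, lower by 0.40 and 0.96 (9.52% of theirs). Cryab at 3.61 to 4.23 and Hspb8 at 3.44 to 4.13 read about the level of absent transcripts. Dnajb1, an HSP40 inducible by heat, read 5.27, 5.76 and 5.90 in WT and 6.91, 6.80 and 5.29 in Het, high on the same 2 Het arrays as the Hspa1 pair.

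AP-1 is a dimer of Jun and Fos proteins that responds within minutes to growth factors and stress. Of 19 tested members 11 read higher and 8 lower, with a median of 0.16, and 3 were separated above WT (15.8%, beside 4.51% of all genes) and none below it (beside 3.9%). Their median was 0.25 within females and -0.02 within males. Jun read 5.31, 6.76 and 7.49 in WT and 8.72, 8.34 and 7.92 in Het, a difference of 1.81 (95% interval 0.50 to 3.11). Jund read 6.65, 6.68 and 6.70 in WT and 8.58, 8.17 and 7.17 in Het. Fosb read 3.96, 4.74 and 4.46 in WT and 6.68, 6.56 and 5.27 in Het. In these 3 genes the order of the Het arrays was the same, with replicate 1 highest and replicate 3 lowest. Fos (5.13, 4.96 and 4.44 in WT, 4.94, 6.85 and 4.63 in Het), Junb, Atf3 and Egr1 overlapped. Dusp1, a MAP kinase phosphatase of the immediate early genes, read 6.02, 6.46 and 6.17 in WT and 7.56, 7.19 and 6.88 in Het. Among the 39 tested immediate early genes 22 read higher and 17 lower (median 0.03), with 1 separated above (2.56%, beside 4.51% of all genes) and 3 below (7.69%, beside 3.9%), Ccn1, Tnfaip3 and Cd69.

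The Jun promoter holds a match to an AP-1 like element, shown because Jun was among the largest differences. It lies on the minus strand at chr4:95052223-95052472 (GRCm38.p6, RefSeq), 5′ to 3′, with capitals marking TGACATCA, whose first base is 45 bases before the start site.
Jun: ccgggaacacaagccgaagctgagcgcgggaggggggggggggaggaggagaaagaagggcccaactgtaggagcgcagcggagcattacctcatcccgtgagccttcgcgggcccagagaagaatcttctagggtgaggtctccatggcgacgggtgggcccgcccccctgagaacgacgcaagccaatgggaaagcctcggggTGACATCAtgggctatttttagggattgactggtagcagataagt
TGACATCA, searched on both strands, was in 1189 of 32851 promoters (3.62%). The related element TGACGTCA was in 415 of 16083 promoters of tested genes (2.58%) in 31 of 788 (3.93%) of those of genes separated above WT and in 12 of 625 (1.92%) of those separated below. The AP-1 element TGANTCA was in 5.96%, 5.08% and 6.72% of the same sets, and TGACATCA in 2.23%, 2.79% and 1.76%. TGACCA, a motif known for BCL11A, was in 1876 of 16083 (11.7%) of promoters of tested genes, in 72 of 788 (9.14%) for genes separated above WT and in 63 of 625 (10.1%) for those separated below. These shares are descriptions of letters in the window and show no binding.

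**Figure D4:**
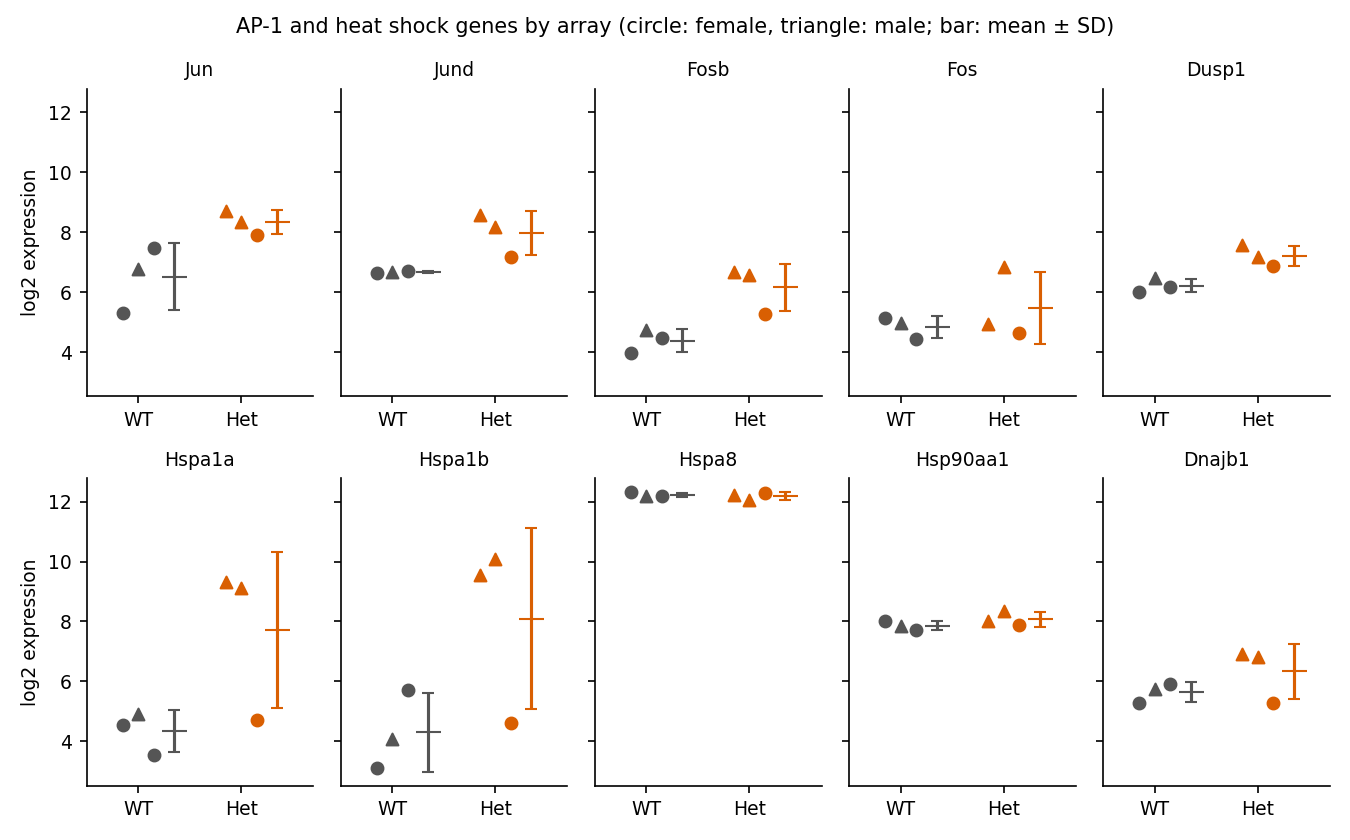
Log2 expression of heat shock and AP-1 genes on each WT and Het array; circles are female arrays, triangles male arrays and bars the mean and SD. Hspa1a and Hspa1b are high, at 9.12 to 10.10, on Het replicates 1 and 2 and low on Het replicate 3, while Hspa8 overlaps between the groups.

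Fatty acid oxidation supplies the stem cell with acetyl-CoA, and of 31 tested enzymes 13 read higher and 18 lower, with a median of -0.08. Acadm, the medium-chain acyl-CoA dehydrogenase, read 8.49, 9.27 and 8.77 in WT and 7.51, 7.46 and 7.78 in Het. Eci1, an enoyl-CoA isomerase, read 7.20, 6.89 and 7.49 in WT and 5.42, 6.16 and 6.47 in Het, and Acadvl read 5.75, 6.58 and 5.41 in WT and 5.17, 5.11 and 5.02 in Het. The family was not uniform: 5 members lay wholly below WT (16.1%, beside 3.9% of all genes) and 4 wholly above it (12.9%, beside 4.51%). Those above were Acsl4 (5.44, 4.59 and 5.09 in WT, 6.40, 6.16 and 5.84 in Het), Hadha (7.48, 7.35 and 7.47 in WT, 7.87, 7.68 and 7.84 in Het), Eci2 and Acaa2. Among 19 complex I assembly factors 10 were higher and 9 lower, and 3 lay wholly below WT (15.8%, beside 3.9% of all genes) and none above it: Tmem126a, given above, Ndufaf7 at 6.91, 7.49 and 6.71 in WT and 5.98, 5.22 and 5.97 in Het, and Tmem186, lower by 0.41. For 42 mitochondrial translation genes 17 were higher and 25 lower (median -0.09), among them Mto1, a tRNA modifier, lower by 0.94, and Tfam, the mitochondrial DNA packaging factor, lower by 0.47. Respiratory chain genes stood at 26 higher and 42 lower (median -0.11) of 68.

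Of 30 tested COPII and TRAPP genes, which move cargo out of the endoplasmic reticulum, 21 read higher and 9 lower (median 0.11). The median was 0.44 within females and 0.01 within males. Sec31a, the outer COPII coat, read 7.04, 6.95 and 7.06 in WT and 7.90, 8.00 and 8.20 in Het. Its partner Sec13 read 6.61, 6.63 and 6.97 in WT and 5.35, 6.21 and 6.48 in Het, so these coat partners differed in direction. Of 37 COPI and Golgi genes 18 were higher and 19 lower. In the 26 glycosphingolipid genes 14 were higher and 12 lower (median 0.08), and 4 lay wholly above WT (15.4%, beside 4.51% of all genes) and none below it: B4galt6, St3gal2, Asah1, the lysosomal acid ceramidase (5.94, 6.02 and 6.14 in WT, 7.05, 7.13 and 6.63 in Het), and Sphk2. For St3gal2 and Sphk2 the gap between the groups was only 0.02 and 0.01. Unfolded protein response genes stood at 9 higher and 21 lower (median -0.15) of 30. Syvn1 and Asns were separated above WT (6.67%, beside 4.51% of all genes), Syvn1 with a gap of only 0.02.

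Of 33 elongin and hypoxia genes 19 read higher and 14 lower (median 0.10). Eloc, an elongin subunit shared with the VHL ubiquitin ligase, read 7.74, 7.65 and 7.71 in WT and 6.76, 5.79 and 6.84 in Het. Pdk1, a hypoxia-responsive kinase, was lower by 1.04 and Car9 higher by 1.03. Of 21 H2A.Z exchange genes 14 were higher and 7 lower (median 0.13, with 0.47 within females and 0.08 within males). Vps72, a subunit that loads H2A.Z, read 5.58, 5.66 and 5.86 in WT and 6.95, 7.07 and 6.63 in Het. In the complexes that bind Bcl11a, 18 of 41 genes were higher and 23 lower (median -0.02). The only separated member, below WT (2.44%, beside 3.9% of all genes), was Chd3, a NuRD remodeller. It read 10.59, 10.12 and 10.40 in WT and 10.07, 10.08 and 9.88 in Het.

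Of 15 BCL2 family genes 6 read higher and 9 lower (median -0.14). Bcl2, the anti-apoptotic founder, read 8.48, 8.19 and 8.13 in WT and 7.43, 7.45 and 7.52 in Het, a difference of -0.80 (95% interval -1.41 to -0.19). Among 28 p53 pathway genes 14 were higher and 14 lower, with Ppm1d, a phosphatase that ends p53 signalling, lower by 0.99 and Plk2 higher by 1.01. Mdm4, which restrains p53, read 6.10, 8.42 and 8.44 in WT and 8.60, 8.59 and 8.24 in Het, and overlapped. The caspase and inhibitor group split 11 to 11 of 22. Cdk6, a kinase that drives exit from quiescence, read 9.04, 8.69 and 9.30 in WT and 8.33, 8.32 and 8.32 in Het. Its 3 Het arrays differed by 0.01, and the difference of -0.69 had an interval of -1.18 to -0.20. Over 26 cell cycle regulators 16 were higher and 10 lower (median 0.09). Cdk6 was the 1 member wholly below WT (3.85%, beside 3.9% of all genes), and 3 lay wholly above it (11.5%, beside 4.51% of all genes): the transcription factors E2f1, E2f2 and Mycn, higher by 0.40, 0.15 and 0.52. The gap between the groups was only 0.03 for E2f2 and 0.05 for Mycn. E2f2 read 3.86 to 4.15 over both groups, at the level of absent transcripts. Over 42 proliferation genes 17 were higher and 25 lower (median -0.11). Mcm7, Pcna, Cenpa and Kif11 lay wholly below WT (9.52%, beside 3.9% of all genes) and Gins4 above it (2.38%, beside 4.51%). The gap between the groups was only 0.02 for Pcna and 0.09 for Kif11.

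Of 27 lymphoid priming genes 17 read higher and 10 lower (median 0.19, with 0.01 within females and 0.02 within males). Among them were Mef2c, higher by 0.36, and Foxo1, lower by 0.43. Myeloid genes stood at 17 higher and 12 lower of 29, with Fcer1g, an Fc receptor chain, at 6.79, 6.84 and 6.41 in WT and 7.43, 7.67 and 8.11 in Het, and Lyz2, lysozyme, lower by 0.55. Megakaryocyte genes stood at 12 and 12 of 24, erythroid genes at 7 higher and 11 lower of 18. Of 38 adhesion and homing receptors 20 were higher and 18 lower. Selplg, the P-selectin ligand, read 6.57, 7.16 and 7.75 in WT and 8.72, 8.60 and 7.96 in Het. Genes of multipotent progenitors stood at 8 higher and 4 lower of 12, and MHC class II genes at 8 and 5 of 13. Interferon-stimulated genes stood at 23 higher and 16 lower of 39 (median 0.15, with 0.33 within females and -0.01 within males). Cmpk2, Oas3 and Irf9 lay wholly above WT (7.69%, beside 4.51% of all genes) and Mx2 below it (2.56%, beside 3.9%). The Irf9 gap was only 0.02, and Mx2 read 3.05 to 3.65, at the level of absent transcripts.

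Markers of other cells that the gate could hold were set beside these results. B cell markers stood at 2 higher and 8 lower of 10 (median -0.25), T and NK cell markers at 6 and 7 of 13, and neutrophil markers at 6 and 6 of 12. The neutrophil mean was 5.78, 5.0 and 4.80 on WT arrays and 4.33, 5.80 and 4.93 on Het arrays, so it was highest on WT replicate 1 and Het replicate 2. Stroma and endothelium markers stood at 9 and 9 of 18, and macrophage markers at 6 and 9 of 15. Ly6g, Ms4a1 and Retnlg lay under the filter in both groups. Mast cell and basophil markers stood at 2 higher and 4 lower of 6, plasmacytoid dendritic cell markers at 3 and 5 of 8, and late red cell markers at 1 and 2 of 3. What part such cells have in the results was not tested.

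**Figure D5:**
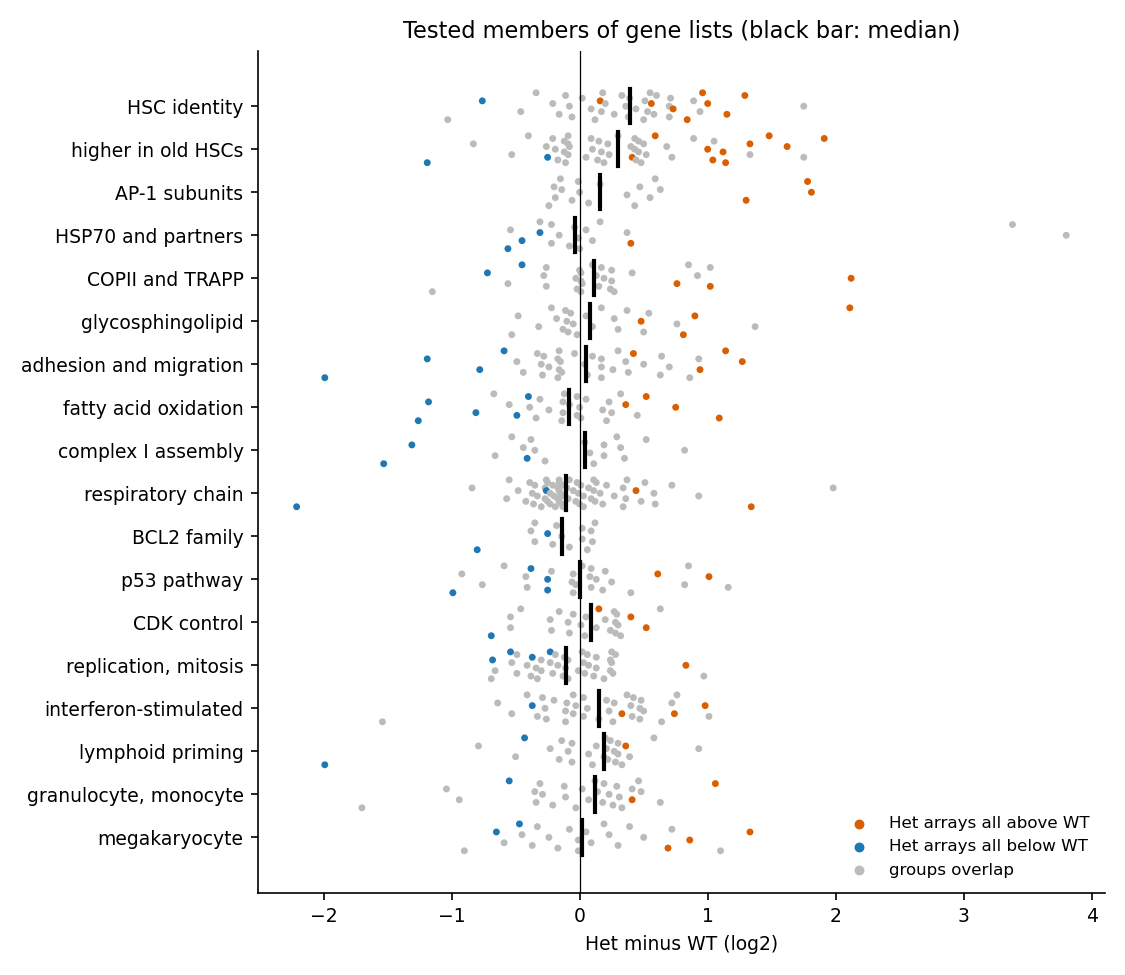
Het minus WT difference (log2) of the tested members of 18 gene lists; each point is a gene, coloured where the groups do not overlap, and the black bar is the list median. The median is 0.39 for HSC identity genes and 0.30 for genes higher in old HSCs, and the median over all genes is -0.01.

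KO cells share the WT controls with this comparison, so Het and KO differences from WT are given side by side and nothing is read from their likeness. The direct contrast KO minus Het called 0 of 16636 genes with limma (0%), with 759 (4.56%) at an unadjusted p under 0.05. For Mllt3 the Het and KO means were 9.05 and 9.59 with WT at 8.05, for Mecom 7.73 and 8.37 with WT at 6.43, and for Cdk6 8.32 and 7.98 with WT at 9.01. For Bcl2 they were 7.47 and 7.47 with WT at 8.27. Other named genes read nearer to WT in KO than in Het. The Het and KO means were 7.58 and 8.32 for Acadm with WT at 8.84, and 6.46 and 7.21 for Eloc with WT at 7.7. They were 5.66 and 4.28 for Myl6b with WT at 3.74, and 7.86 and 5.84 for Tmem203 with WT at 5.4. KO minus Het in limma had an adjusted p of 0.965 for Myl6b and 0.998 for each of the other genes given here. Such a p misses the threshold and does not show that Het and KO are equal.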

How the data were processed

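Sorted HSCs of WT, Het and KO mice were measured on Affymetrix Mouse Gene 2.0 ST arrays, 3 per genotype, after amplification with a kit for small inputs, per the labels' protocols. The sample titles do not say whether an array held cells of a single mouse. The authors deposited log2 values per probe set made with RMA, a method of background removal, normalization between arrays and summary over probes, per the submitters' processing notes; the sources used here name neither its settings nor a genome build. RMA compresses differences of dim transcripts.

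Of 41345 probe sets, 23521 had 1 symbol, 1814 several and 16010 had no symbol in the platform annotation given or were not listed there. For each of 22180 genes the probe set of highest mean over 9 arrays was kept, and 5544 with a mean under the 25th percentile (3.31) were left out. limma 3.58.1 in R 4.3.3 fitted a mean per genotype over all 9 arrays (6 residual and 4.26 prior degrees of freedom); p-values are two-sided, and adjusted ones are Benjamini-Hochberg values over all genes tested. The fit was tested on simulated data. The number of arrays limits the precision. The labels do not tell whether the mice of a group were littermates.

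The genes named were Bcl11a; the 16 largest differences in each direction among genes of at least median level whose groups did not overlap and whose unadjusted p was under 0.05, leaving out predicted, small RNA, pseudogene, receptor-segment and olfactory genes, Xist and Y-linked genes (other X-linked genes were kept); members of gene lists whose groups did not overlap, then the brightest, up to 5 a list; and a fixed set of HSC, cell cycle and stress genes. Further list members were chosen after their values were seen. The members and lists were chosen with earlier results of these data known. Lists were counted, not tested. Same-numbered WT and Het arrays deviated together with r of 0.034, 0.0126 and 0.229, so the numbers were not taken as pairs. Alternatives changed the arrays, filter, normalization, weights, variance model, sex term, probe set rule and replicate block.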

Additional observations from a re-analysis of the deposited data

Results flagged for a closer look

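The platform annotation used here names no gene for 6 probe sets that differed between Het and WT cells when all 41345 probe sets were fitted together with limma and Benjamini-Hochberg adjustment. These data lie outside the comparison of named genes. Probe sets 17549014, 17549136 and 17549148 hold identical values and read higher in Het by 3.88 (adjusted p = 0.0172), in 3 of 3 Het arrays against every WT array. Probe set 17549066 read higher by 3.24 and 17549072 by 3.42 (adjusted p = 0.0101 for both), each in 3 of 3 Het arrays. Probe set 17549150 differed by -2.71 (adjusted p = 0.0172), with all 3 Het arrays below all WT arrays. Over the arrays left out in turn, the highest adjusted p was 0.152 for 17549014 and 17549150 and 0.114 for the other 2 patterns. Over the other alternatives it was 0.238 for 17549014 and 0.127 for the other 3 patterns. The fit to the 6 WT and Het arrays alone and the fit with the replicate block each called 0 of the 6.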

How the results depend on the processing

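No named gene was called by limma under any alternative, including each array left out in turn; over all probe sets without a filter 6 unnamed ones were. At an unadjusted p under 0.05 that fit gave 890 higher and 783 lower probe sets, and genes at or above the median level gave 172 lower; leaving out 1 array gave 353 to 855 higher and 231 to 469 lower. Of genes whose groups did not overlap, 376 lay lower at or above the median level, and leaving out 1 array, which makes separation easier, gave 1323 to 1829 higher and 1232 to 2088 lower. At or above the median level the list medians were 0.43 for old HSC genes and 0.37 for AP-1. The unnamed calls were 0 with the 6 arrays alone, 3 with sex as a term and 0 to 6 with 1 array left out. With sex as a term Bcl11a read 0.01 and Hspa8 0.01. With 1 array left out Hspa8 ranged from -0.10 to 0.03, Cd48 from -0.29 to 0.33, Cdkn1c from -0.04 to 0.36 and Fos from -0.06 to 1.05. The cause was not tested.

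With the replicate block 0 named genes and 0 unnamed probe sets were called, and 506 genes were higher and 266 lower at an unadjusted p under 0.05.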

Other observations

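The 40 tested genes nearest to Bcl11a, 20 on each side, gave a median Het minus WT difference of 0.03, with 22 higher and 18 lower. The groups did not overlap for 1 of them (2.5%), against 8.41% of all genes. A test of whether the Het minus WT difference depended on sex called 0 genes with limma at an adjusted p under 0.05, with 825 at an unadjusted p under 0.05 and a lowest adjusted p of 0.0769. That fit had 3 residual degrees of freedom.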
